A study of Mus musculus with 24 samples.

Results

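The genes described here are 10 genes of antigen presentation in mouse spinal cord, chosen by name from the 32884 genes of the deposited expression table: H2-K1, H2-D1, B2m, Tap1, Tap2, Psmb8, Cd74, H2-Aa, H2-Ab1 and H2-Eb1. All 10 were found under these symbols, each in a single row of the table. Spinal cord was taken 3, 7 and 14 days after a spared nerve injury, in which the tibial and common peroneal branches of the sciatic nerve are tied and cut under sevoflurane, and from sham mice whose nerve was exposed only. Sham cords carry the label of day 3, so that sham at days 7 and 14 was not analysed here and time cannot be told apart from injury at those days. Each of the 4 groups had 3 input libraries of fragmented poly(A) RNA, whose levels are given as FPKM (fragments per kilobase of transcript, scaled to sequencing depth), and 3 libraries, with 1 list of peaks per group, from RNA enriched with an antibody against N6-methyladenosine (m6A). Strain, age, sex, the part of the cord and the number of mice per library are not given in the labels.

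Cells display peptides on major histocompatibility complex (MHC) proteins, which T cells read. Class I proteins pair a heavy chain such as H2-K1 or H2-D1 with beta-2-microglobulin (B2m) and carry peptides from the cell's own cytosol, cut by the proteasome and brought into the endoplasmic reticulum by the transporter formed by Tap1 and Tap2. Class II proteins pair an alpha with a beta chain, are held by the invariant chain Cd74 until they meet peptides from endosomes, and belong mainly to professional antigen-presenting cells. In the central nervous system microglia and border macrophages are the best known carriers of both, and interferons are strong inducers of all of these genes.

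The cords carried RNA of neurons, oligodendrocytes and astrocytes in every library: Snap25 was at 305 to 375 FPKM, Mbp at 1564 to 1968 FPKM and Gfap at 295 to 394 FPKM. Sham library 3 and day 7 library 3 stood apart from the other 10 libraries, with Pearson correlations of 0.925 to 0.942 with them and of 0.983 with each other on the log2 scale across the 15564 genes whose FPKM averaged 0.5 or more. Their FPKM summed to 180340 and 181738, against 197878 to 201358 in the other libraries. The remaining libraries correlated at 0.980 to 0.988 within groups and at 0.979 to 0.988 between groups. Whether each library is a different mouse is not stated, so the p-values below describe the scatter of libraries and that scatter may be technical. Results are given with all 12 libraries and, where this changed a call or a direction, without these 2 libraries.

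None of the 10 genes passed the test between any pair of groups in limma fits of log2(FPKM + 0.5) with Benjamini-Hochberg adjustment over 15564 genes and a threshold of 0.05. H2-Aa and H2-Ab1 lay below the mean FPKM of 0.5 needed for the test, and in a fit without that filter 0 of 10 genes passed as well. Among all genes tested, 0.0578% were called on day 3 against sham, 0.103% on day 7 against sham and 0.0514% on day 14 against sham. The shares were 0.0129% for day 7 against day 3, 0.0129% for day 14 against day 3 and 0.0321% for day 14 against day 7. An unadjusted p below 0.05 was reached by 2 of the 8 tested genes on day 14 against sham (H2-K1 and H2-Eb1), by 1 on day 14 against day 7 (H2-K1) and by none in the other 4 comparisons. Over all genes tested, 4.92% reached it on day 14 against sham, 4.46% on day 14 against day 7 and 1.75 to 6.24% in the other 4. With the shares called after adjustment, a count of 0 among 8 genes is what most sets of 8 genes would give, so it says little about these genes alone.

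The median log2 difference of the 8 tested genes was 0.18 on day 3, -0.00035 on day 7 and 0.26 on day 14 against sham, beside 0.028, 0.0062 and 0.031 over all genes tested. Without sham library 3 and day 7 library 3 these medians were 0.061, -0.055 and 0.14, beside 0.017, 0.0049 and 0.022. Day 14 was the time at which all 8 tested genes lay above sham in the fit of 12 libraries, and 6 of 8 did so without the libraries that stood apart.

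**Figure D1:**
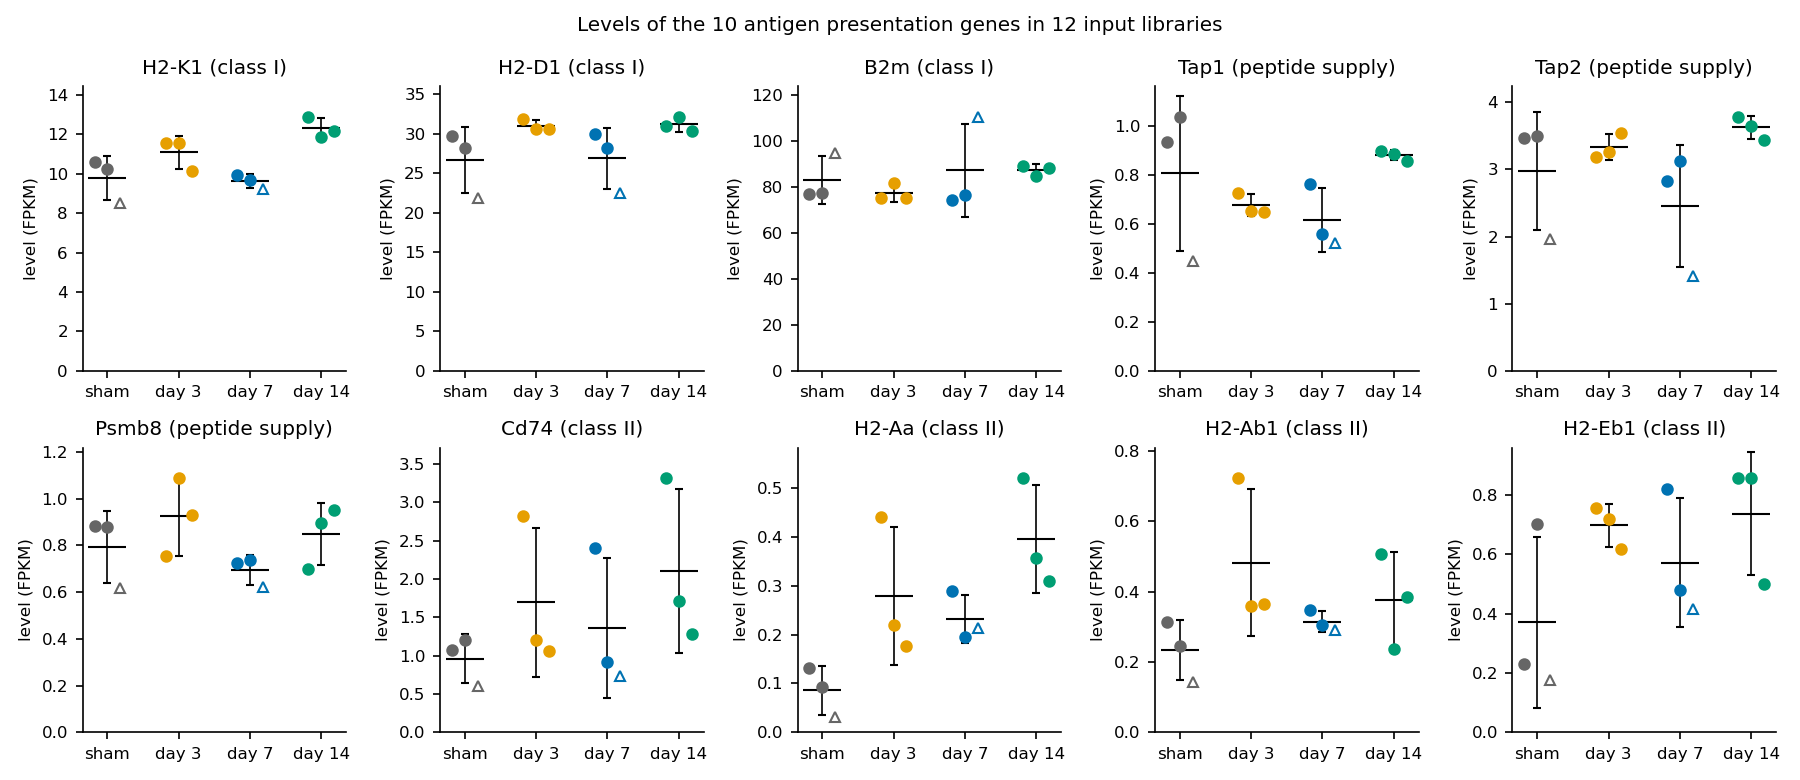
Levels in FPKM (vertical axes) of the 10 genes in the 3 input libraries of each group (points, libraries 1 to 3 from left to right), with the mean and SD as bars. Open triangles are sham library 3 and day 7 library 3, where B2m was higher and H2-D1 and Tap2 were lower than in the other libraries, and H2-Aa lay above sham in all 9 injured libraries.

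Per length, B2m was the most abundant of the genes at 83.8 FPKM on average over the 12 libraries, at or above 98.0% of the genes tested. H2-D1 averaged 28.9 FPKM and H2-K1 10.7 FPKM, and the ranges of these 3 genes and of Tap2 (3.10 FPKM) over the libraries did not overlap. Lower down the order was Cd74 (1.53 FPKM), Psmb8 (0.816 FPKM), Tap1 (0.746 FPKM), H2-Eb1 (0.594 FPKM), H2-Ab1 (0.352 FPKM) and H2-Aa (0.248 FPKM). Each of these overlapped its neighbours in the order, Cd74 reaching from 0.604 to 3.31 FPKM. The 3 class I genes thus stood above the 4 class II genes in every library.

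H2-K1 (ENSMUSG00000061232, chromosome 17, 33996017 to 34000347, minus strand), a classical class I heavy chain, was at 10.6, 10.2 and 8.52 FPKM in sham, 11.6, 11.6 and 10.1 FPKM on day 3, 9.94, 9.69 and 9.25 FPKM on day 7 and 12.9, 11.9 and 12.2 FPKM on day 14. All 3 day 14 libraries lay above the 9 others, which 1.55% of the 20295 genes averaging at least 0.1 FPKM also did. The mean ± SD was 9.78 ± 1.11 FPKM in sham and 12.3 ± 0.524 FPKM on day 14 (n = 3 each), a log2 difference of 0.32 ± 0.091 (SE, limma, adjusted p = 0.692). Day 14 against day 7 gave 0.34 ± 0.091 (limma, adjusted p = 0.706). Without the libraries that stood apart the day 14 difference was 0.23 ± 0.060 against sham (limma, adjusted p = 0.0679) and 0.31 ± 0.060 against day 7, which passed (limma, adjusted p = 0.0318).

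H2-D1 (ENSMUSG00000073411, chromosome 17, 35262730 to 35267499, plus strand), the other classical heavy chain, was at 29.7, 28.2 and 21.9 FPKM in sham, 31.9, 30.6 and 30.5 FPKM on day 3, 29.9, 28.1 and 22.5 FPKM on day 7 and 30.9, 32.2 and 30.3 FPKM on day 14. Days 3 and 14 lay above all sham libraries, and sham and day 7 overlapped. The log2 difference from sham was 0.23 ± 0.13 on day 3 and 0.24 ± 0.13 on day 14, and without sham library 3 and day 7 library 3 it was 0.096 ± 0.038 and 0.10 ± 0.038, with no call (limma, adjusted p = 0.185 and 0.181). H2-D1 stood at 2.40 to 3.01 times the level of H2-K1 in every library. Heavy chain genes are close copies of each other and of the H2-Q genes, and how reads that fit several copies were assigned is not given in the sources used here, so the split between them is uncertain.

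B2m (ENSMUSG00000060802, chromosome 2, 122147686 to 122153083, plus strand), the light chain of every class I protein, was at 76.9, 77.4 and 95.0 FPKM in sham, 75.1, 81.8 and 75.1 FPKM on day 3, 74.4, 76.8 and 111 FPKM on day 7 and 89.2, 84.7 and 88.5 FPKM on day 14. Its highest values were in the libraries that stood apart, where its level was 3.13 and 3.48 times the summed H2-K1 and H2-D1 level, against 1.73 to 2.08 times in the other 10. The differences from sham on days 3 and 7 turned from -0.097 and 0.054 to 0.0026 and -0.029 without those libraries. With all libraries the day 14 difference from sham was 0.081 ± 0.14 (limma, adjusted p = 0.791). Without them B2m was higher on day 14 by 0.18 ± 0.040 against sham (limma, adjusted p = 0.0399), by 0.18 ± 0.035 against day 3 (limma, adjusted p = 0.0463) and by 0.21 ± 0.040 against day 7 (limma, adjusted p = 0.0309). These are rises from 77.1 FPKM in sham libraries 1 and 2, and from 75.6 FPKM in day 7 libraries 1 and 2, to 87.5 FPKM. The calls were not present in a fit without the FPKM filter, where the values were 0.105, 0.123 and 0.0937 for B2m and 0.0882 for H2-K1 on day 14 against day 7 (limma, adjusted p).

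Without the libraries that stood apart 4.71% of all tested genes were called on day 14 against sham, 1.99% against day 3 and 2.69% against day 7. For comparison, 7.07% were called on day 3 against sham, 1.11% on day 7 against sham and 2.04% on day 7 against day 3, where none of the 8 genes passed. The 4 calls were B2m in 3 comparisons and H2-K1 in 1, all at day 14 and all in class I. When the libraries of each group other than those that stood apart were averaged, giving 6 samples and 2 residual degrees of freedom, there were 0 calls among the 8 genes and 0 among all genes in limma, with 21 to 75 genes at an unadjusted p below 0.05 per comparison.

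**Figure D2:**
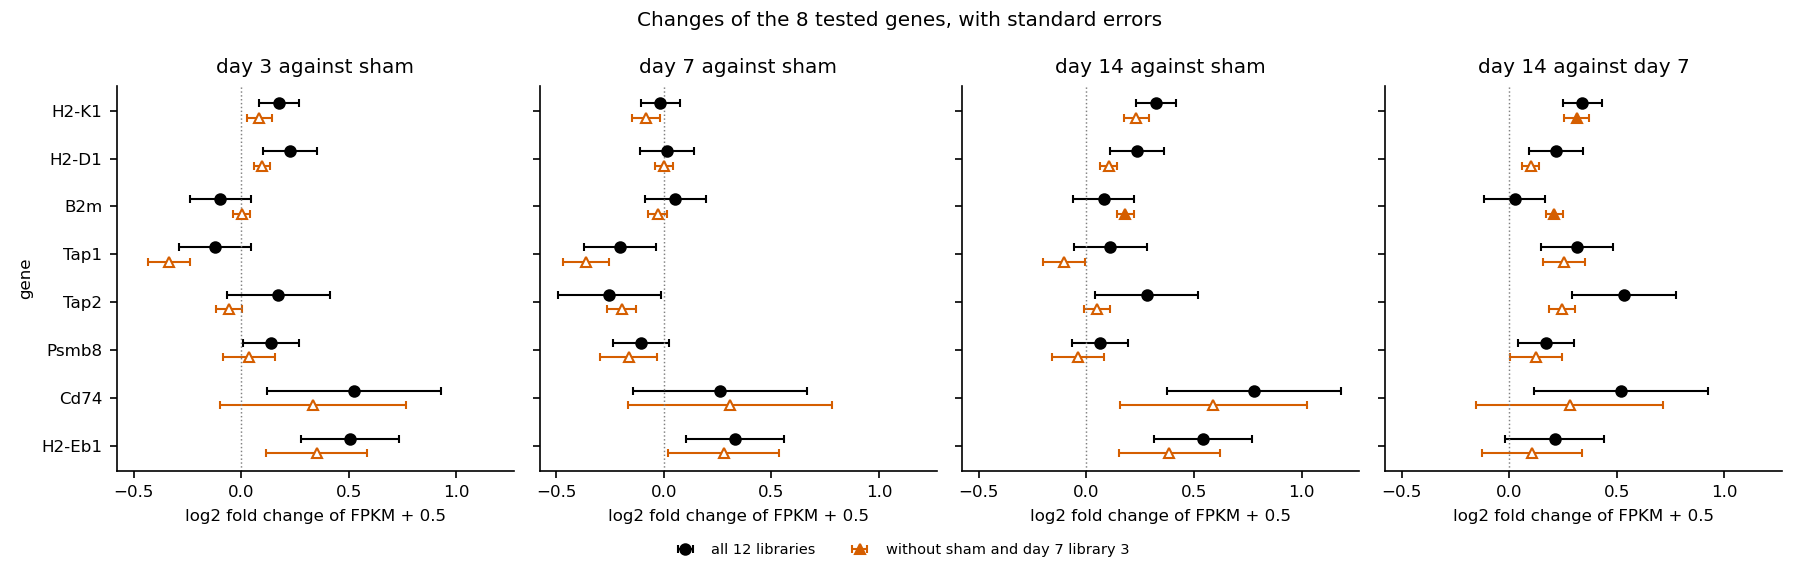
Log2 fold change of FPKM + 0.5 (horizontal axes) of the 8 tested genes in 4 comparisons, with standard errors as bars. Black circles are fits of all 12 libraries and orange triangles fits without sham library 3 and day 7 library 3, filled where the adjusted p was below 0.05: B2m on day 14 against sham and day 7, and H2-K1 on day 14 against day 7.

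Promoters of MHC genes hold short elements that are known to bind nuclear factor kappaB, interferon regulatory factors and the complex that includes the RFX proteins. Not every element belongs to both classes. RefSeq promoter windows of GRCm38.p6, which run from 250 bases before to 50 after a gene's start, were matched for 7 of the 10 genes. They were searched on both strands for GGGNNTTCC (kappaB-like), GAANNGAAA or GAAANNGAA (interferon-element-like), TGACG (the core of the cyclic AMP element) and for the Y box core, ATTGG. Overlapping matches were kept. Of 32841 windows of the same length, 5.82% held the kappaB-like letters, 7.51% GAANNGAAA, 8.56% GAAANNGAA, 20.8% the cyclic AMP core and 37.4% the Y box core. These sequences are shown because H2-K1 and B2m are the genes with a call and because the order of their matches is visible in them, with matches in capitals and each read 5′ to 3′ along the gene. TTTCACTTC is the interferon-element-like match and CCAAT the Y box core read on the other strand, and in H2-Aa a forward and a reverse cyclic AMP core overlap:
H2-K1: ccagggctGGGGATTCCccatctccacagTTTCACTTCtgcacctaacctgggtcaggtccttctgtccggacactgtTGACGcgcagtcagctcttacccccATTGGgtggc
B2m: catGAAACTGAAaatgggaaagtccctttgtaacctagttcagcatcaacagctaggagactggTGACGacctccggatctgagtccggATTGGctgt
H2-D1: agTTTCACTTCtgcacctaacctgggtcag
Tap1: gcccagagacaggTGACGacagagggtcct
H2-Aa: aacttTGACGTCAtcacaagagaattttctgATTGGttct
H2-Eb1: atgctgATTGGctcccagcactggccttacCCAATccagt
The H2-K1 stretch is chr17:34000354-34000466 on the minus strand and the B2m stretch chr2:122147545-122147642 on the plus strand. H2-D1 is shown at chr17:35262942-35262971 and Tap1 at chr17:34187457-34187486, both on the plus strand. The H2-D1 stretch lies before the RefSeq start at 35263094 but inside the authors' gene model, which begins at 35262730. H2-Aa is shown at chr17:34287863-34287902 on the minus strand and H2-Eb1 at chr17:34305802-34305841 on the plus strand. H2-K1 held the kappaB-like match, an interferon-element-like match, the cyclic AMP core and the Y box core in this order, and H2-D1 held the same 4 in the same order, with 92 of 100 bases alike when the windows were laid over each other at the kappaB-like match. B2m held an interferon-element-like match, the cyclic AMP core and the Y box core. The kappaB-like match was in 3 of the 7 windows (H2-K1, H2-D1 and the class II gene H2-Aa, there outside the stretch shown). The cyclic AMP core was in 5 (H2-K1, H2-D1, B2m, Tap1 and H2-Aa) and the Y box core in 6 (all but Psmb8). These are matches of letters and were not tested for binding in these cords.

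Peptide supply genes lay side by side within the class II region of chromosome 17. Tap1 (ENSMUSG00000037321, 34187553 to 34197225, plus strand) overlaps the start of Psmb9, an immunoproteasome subunit on the minus strand, by 212 bases, and Psmb8 (ENSMUSG00000024338, 34197721 to 34201454, plus strand) begins 495 bases behind it. Tap2 (ENSMUSG00000024339, 34203527 to 34216321, plus strand) follows. The libraries keep strand by dUTP marking per the labels, but whether the counting used it is not stated.

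Tap1, a subunit of the peptide transporter, was at 0.936, 1.04 and 0.448 FPKM in sham, 0.728, 0.653 and 0.652 FPKM on day 3, 0.765, 0.560 and 0.524 FPKM on day 7 and 0.901, 0.889 and 0.860 FPKM on day 14. Sham libraries 1 and 2 were the highest of all and sham library 3 the lowest. The log2 difference from sham was -0.12 ± 0.17 on day 3, -0.20 ± 0.17 on day 7 and 0.11 ± 0.17 on day 14. Without the libraries that stood apart it was -0.34 ± 0.098, -0.36 ± 0.11 and -0.10 ± 0.098, again without a call (limma, adjusted p = 0.0811, 0.194 and 0.615). The day 14 difference thus turned from positive to negative.

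Tap2, the other subunit of the transporter, was at 3.46, 3.50 and 1.97 FPKM in sham, 3.18, 3.26 and 3.55 FPKM on day 3, 2.83, 3.12 and 1.41 FPKM on day 7 and 3.79, 3.65 and 3.43 FPKM on day 14. The values of the libraries that stood apart were the lowest. Day 14 lay above day 7 in all libraries, with a log2 difference of 0.53 ± 0.24 (limma, adjusted p = 0.784) and of 0.25 ± 0.061 without those libraries (limma, adjusted p = 0.0811). Day 3 was above sham by 0.17 ± 0.24 with all libraries and below it, at -0.057 ± 0.061, without them.

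Psmb8, an immunoproteasome subunit that replaces Psmb5 of the standard proteasome, was at 0.884, 0.879 and 0.616 FPKM in sham, 0.753, 1.09 and 0.931 FPKM on day 3, 0.727, 0.740 and 0.623 FPKM on day 7 and 0.701, 0.896 and 0.952 FPKM on day 14. The groups overlapped except that day 7 lay below day 3. Its log2 differences from sham were between -0.11 and 0.14 with all libraries (SE 0.13 each), and on day 14 the difference turned from 0.064 to -0.039 without the libraries that stood apart. Psmb5 was at 51.6 FPKM or more in the 10 libraries that did not stand apart and at 22.4 and 22.8 FPKM in the others.

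Cd74 (ENSMUSG00000024610), the invariant chain that chaperones class II proteins, was at 1.07, 1.21 and 0.604 FPKM in sham, 2.81, 1.20 and 1.06 FPKM on day 3, 2.40, 0.923 and 0.738 FPKM on day 7 and 3.31, 1.72 and 1.28 FPKM on day 14. Day 14 lay above sham in all libraries and days 3 and 7 overlapped sham. In each injured group library 1 was the high value, at 2.34, 2.60 and 1.93 times the higher of libraries 2 and 3. The mean ± SD was 0.962 ± 0.318 FPKM in sham and 2.10 ± 1.07 FPKM on day 14 (n = 3 each), a log2 difference of 0.78 ± 0.40 (limma, adjusted p = 0.70). Against sham the difference was 0.52 ± 0.40 on day 3 and 0.26 ± 0.40 on day 7, and on each day it was smallest without library 1 of that day. Without that library it was 0.18 on day 3, where library 1 held lung RNA, -0.11 on day 7 and 0.47 on day 14.

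H2-Aa (ENSMUSG00000036594, chromosome 17, 34282744 to 34287823, minus strand), the class II alpha chain, was at 0.131, 0.0937 and 0.0325 FPKM in sham, 0.440, 0.219 and 0.177 FPKM on day 3, 0.288, 0.195 and 0.213 FPKM on day 7 and 0.520, 0.357 and 0.310 FPKM on day 14. All 9 injured libraries lay above all 3 sham libraries, which 0.902% of the 20295 genes averaging at least 0.1 FPKM did. In the fit without the FPKM filter the log2 differences were 0.40 ± 0.13 on day 3, 0.32 ± 0.13 on day 7 and 0.61 ± 0.13 on day 14 (limma, adjusted p = 0.736, 1 and 0.490). These are on the log2(FPKM + 0.5) scale, which understates changes at this level: the mean FPKM was 0.0857 ± 0.0497 in sham and 0.396 ± 0.110 on day 14 (SD, n = 3 each). With depth unknown, the number of fragments behind such values is unknown too.

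H2-Ab1 (ENSMUSG00000073421, chromosome 17, 34257689 to 34269419, plus strand), a class II beta chain, was at 0.314, 0.246 and 0.143 FPKM in sham, 0.723, 0.360 and 0.364 FPKM on day 3, 0.348, 0.306 and 0.290 FPKM on day 7 and 0.508, 0.237 and 0.386 FPKM on day 14. Only day 3 lay wholly above sham. H2-Eb1 (ENSMUSG00000060586, chromosome 17, 34305867 to 34316674, plus strand), the beta chain of the other class II pair, was at 0.231, 0.701 and 0.178 FPKM in sham, 0.756, 0.719 and 0.616 FPKM on day 3, 0.819, 0.480 and 0.415 FPKM on day 7 and 0.856, 0.856 and 0.498 FPKM on day 14. Its groups overlapped through sham library 2. The log2 difference of H2-Eb1 from sham was 0.51 ± 0.23 on day 3, 0.33 ± 0.23 on day 7 and 0.54 ± 0.23 on day 14 (limma, adjusted p = 0.695, 1 and 0.70).

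Counting genes whose libraries did not overlap, 3 of the 10 (H2-D1, H2-Aa and H2-Ab1) were higher on day 3 than in sham, beside 12% of the 20295 genes. On day 7 the number was 1 of 10 (H2-Aa) beside 3.21%, and on day 14 it was 4 of 10 (H2-K1, H2-D1, Cd74 and H2-Aa) beside 10.9%. Between injured days, 5 of 10 (H2-K1, H2-D1, Tap2, Psmb8 and H2-Ab1) were lower on day 7 than on day 3, beside 8.69%, and 5 of 10 (H2-K1, H2-D1, Tap1, Tap2 and H2-Aa) were higher on day 14 than on day 7, beside 9.35%. Day 14 lay above day 3 in 3 of 10 (H2-K1, B2m and Tap1), beside 10.2%. Several of the 10 genes share a library's deviation, so these are not independent counts.

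The high Cd74 value of library 1 was accompanied by other RNAs in the same libraries, named after their values were seen. Among 17020 genes averaging 0.3 FPKM or more, 6 were over 1.5 times the higher of the other libraries in library 1 of all 3 injured groups: Cd74, Igkc, Fam220a, Mir6998, A730098A19Rik and Gm7368. H2-Aa, at 0.248 FPKM, was outside this count. It too was highest in library 1 on days 3, 7 and 14, at 2.01, 1.36 and 1.46 times the higher of the others. For H2-Ab1 these values were 1.99, 1.14 and 1.31. In sham, library 1 was also highest for H2-Aa (1.40 times) and H2-Ab1 (1.28 times). Igkc, the constant part of the immunoglobulin kappa light chain made by B lineage cells, was at 2.00, 0.906 and 0.497 FPKM on day 3, 1.59, 0.725 and 0.906 FPKM on day 7, 1.61, 0.491 and 0.564 FPKM on day 14 and 0, 0.237 and 0.938 FPKM in sham. Day 3 library 1 also held RNA of lung, with 7 lung genes summing to 150.0 FPKM there and to 0.222 to 0.584 FPKM in the other 11 libraries. In it the surfactant gene Sftpc was at 23.2 FPKM and Scgb1a1, a secretory protein of airway cells, at 118 FPKM, while Scgb1a1 was listed at 0 in all others. Lyz2, a lysozyme of myeloid cells, was at 15.7 FPKM in that library and at 1.94 to 6.06 FPKM elsewhere. The part of these RNAs in the class II values was not tested.

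**Figure D3:**
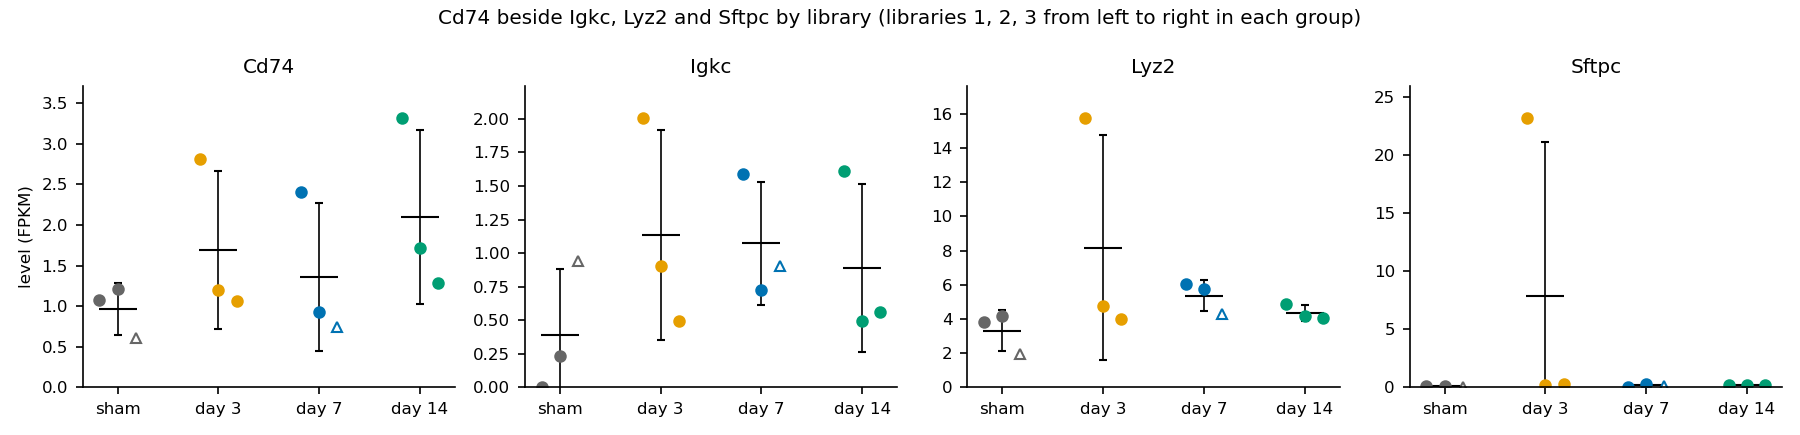
Levels in FPKM (vertical axes) of Cd74, Igkc, Lyz2 and Sftpc in each input library, with the mean and SD of 3 libraries as bars and open triangles for sham library 3 and day 7 library 3. Cd74 and Igkc were highest in library 1 of each injured group, while Lyz2 and Sftpc stood out in day 3 library 1 alone.

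Markers of the cells that carry class II proteins were compared next. Microglial markers, 8 in number, summed to 70.4 to 78.0 FPKM in sham, 98.0 to 99.7 FPKM on day 3, 95.5 to 117 FPKM on day 7 and 88.0 to 91.4 FPKM on day 14. With all libraries 1 of 8 rose on day 3 (Tmem119) and 0 on days 7 and 14, beside 0.0578, 0.103 and 0.0514% of all tested genes called. Without the libraries that stood apart 5, 4 and 3 rose and none fell, beside 7.07, 1.11 and 4.71% of all tested genes called. In bulk tissue more cells of a type and more RNA per cell cannot be told apart. Markers of border macrophages summed to 0.338 to 1.16 FPKM over 6 genes. The B cell marker Ms4a1 (at most 0.0789 FPKM) and the T cell markers Cd3d (at most 0.0501 FPKM) and Cd8a (at most 0.0609 FPKM) were near 0 in every library. Lck, a kinase of T cell receptor signalling on the same T cell list, averaged 0.239 FPKM, too little for the test. It was at 0.104 to 0.168 FPKM in sham and at 0.197 to 0.379 FPKM in the 9 injured libraries, with no overlap. Of the 20295 genes averaging at least 0.1 FPKM, 0.902% lay above sham in this way. None of the other measured T cell genes was above sham in all 9 injured libraries. Of 5 B cell markers none was at 0 in 6 or more libraries, Cd79a and Cd79b reaching 0.507 and 0.460 FPKM, both in day 14 library 1. Ighm alone was high, at 22.4 to 33.1 FPKM, and made up nearly all of the B cell sum of 22.8 to 33.8 FPKM. Of 6 dendritic cell markers measured, Cd209a, Clec9a and Ccr7 were at 0 in at least 6 libraries, and Flt3 at 4.10 to 5.30 FPKM made up most of the sum of 4.99 to 6.32 FPKM. The T cell sum was 1.71 to 3.08 FPKM over 6 genes, most of it Trac. Neutrophil markers summed to 4.51 to 7.46 FPKM in sham, 6.45 to 7.55 FPKM on day 3, 10.5 to 13.2 FPKM on day 7 and 2.67 to 3.01 FPKM on day 14. How much of the class II RNA came from any of these cells was not tested.

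The lists of pathway genes below were chosen with earlier results of these data known. Ciita, the master regulator of class II genes, was at 0 in all 3 sham libraries and at most 0.0360 FPKM elsewhere. The RFX subunits that bind class II promoters were measured in every library: Rfx5 was at 5.54 to 7.22 FPKM, Rfxap at 5.99 to 8.01 FPKM and Rfxank at 4.74 to 7.42 FPKM. Of 14 class II loading, processing and control genes 9 were tested, and none passed with all libraries at any day against sham. Without the libraries that stood apart 4 rose on day 3: Ctss, which trims the invariant chain, Ctsl and Lgmn, which are endosomal proteases, and Ifi30, a thiol reductase that opens antigens. Ctss alone rose on days 7 and 14. Over all tested genes 7.07, 1.11 and 4.71% were called in that fit on days 3, 7 and 14. Ctss was at 37.4, 35.7 and 42.4 FPKM in sham and at 48.5 to 71.7 FPKM in the 9 injured libraries, with no overlap. The same held for 0.902% of the 20295 genes averaging at least 0.1 FPKM. Ifi30 was at 2.06, 2.32 and 2.66 FPKM in sham and between 4.67 and 6.10 FPKM on day 3, and on days 7 and 14 it overlapped sham. The median of the 9 tested genes was 0.23, 0.14 and 0.16 on days 3, 7 and 14 with all libraries. It was 0.17, 0.12 and 0.11 without those that stood apart. Over all tested genes the medians were 0.028, 0.0062 and 0.031 with all libraries and 0.017, 0.0049 and 0.022 without those.

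Genes of class I loading were compared with sham next. Of 16 such genes and further class I heavy chains 14 were tested, and 0 passed with all libraries at any day against sham. Without the libraries that stood apart 4 fell on day 3 (Calr, Pdia3, H2-T23 and H2-T24) and 2 fell on day 7 (Calr and H2-T23). On day 14 the numbers were 3 that fell (Calr, Pdia3 and H2-T24) and 1 that rose. Over all tested genes 7.07, 1.11 and 4.71% were called in that fit on days 3, 7 and 14. Calr and Pdia3 are chaperones that hold class I heavy chains in the endoplasmic reticulum, and the H2-T genes are nonclassical heavy chains. Calr was at 122, 119 and 102 FPKM in sham and at 91.1 to 104 FPKM in the injured libraries other than day 7 library 3, where it was 134 FPKM. The gene that rose was H2-Q6, at 0.504, 0.633 and 0.840 FPKM in sham and at 1.30, 1.07 and 1.14 FPKM on day 14. Tapbp, or tapasin, which bridges heavy chains to the transporter, was at 6.48 to 9.24 FPKM. Nlrc5, the class I counterpart of Ciita, was at 0.496 and 0.490 FPKM in sham libraries 1 and 2 and at 0.149 to 0.282 FPKM in the other 10. Medians of the 14 genes against sham were 0.029, -0.074 and 0.14 on days 3, 7 and 14 with all libraries. They were -0.026, -0.13 and -0.043 without those that stood apart, so that the sign turned on days 3 and 14. Over all tested genes the medians were 0.028, 0.0062 and 0.031 with all libraries and 0.017, 0.0049 and 0.022 without those.

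Of 5 further immunoproteasome and activator genes 4 were tested and none passed in any comparison, with or without the libraries that stood apart. Psme3, Psmb10 and Psme1 were the most abundant, at 24.6 to 32.6, 4.32 to 12.4 and 6.79 to 10.9 FPKM. None of the 3 standard catalytic subunits passed, and none of the 3 tested genes of the co-stimulatory list (Cd274, Icosl and Icam1). Cd86, which gives T cells their co-stimulus, was at 0.297 to 0.767 FPKM and Cd80 at 0.0802 to 0.274 FPKM. Cd86 and Cd80 averaged too little for the test.

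Of the interferon ligands only Ifng, the gene of interferon gamma, was looked at. Ifng was listed at 0 in 10 libraries and at no more than 0.0322 FPKM in the others, while its receptor genes Ifngr1 and Ifngr2 were at 4.79 to 6.96 and 6.87 to 8.08 FPKM. Of the 9 interferon gamma signalling genes 7 were tested. None passed with all libraries, and without those that stood apart Ifngr2 rose on day 3, where 7.07% of all tested genes were called.

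The 16 type I interferon response genes summed to 77.9 and 77.2 FPKM in sham libraries 1 and 2, to 40.3 FPKM in sham library 3 and to 42.8 to 54.4 FPKM in the 9 injured libraries. Of 15 tested, 0 passed with all libraries. Without those that stood apart 11 fell on day 3, 8 on day 7 and 9 on day 14, and none rose. Over all tested genes 7.07, 1.11 and 4.71% were called in that fit on these days. The medians of the 15 genes were -0.37, -0.26 and -0.22 with all libraries and -0.76, -0.79 and -0.59 without those 2. Over all tested genes the medians were 0.028, 0.0062 and 0.031 with all libraries and 0.017, 0.0049 and 0.022 without those 2. Ifit1 was at 4.23, 4.42 and 1.65 FPKM in sham and at 1.20 to 1.87 FPKM in the injured libraries. Irf7, an interferon-induced transcription factor, was at 3.00, 2.58 and 0.731 FPKM in sham and at 0.527 to 1.19 FPKM in the injured ones. The difference rests on sham libraries 1 and 2, since sham library 3 had a lower sum than every injured library. The class I sum of H2-K1, H2-D1 and B2m was 117, 116 and 125 FPKM in sham and 119, 124 and 116 FPKM on day 3. It was 114, 115 and 143 FPKM on day 7 and 129 to 133 FPKM on day 14.

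**Figure D4:**
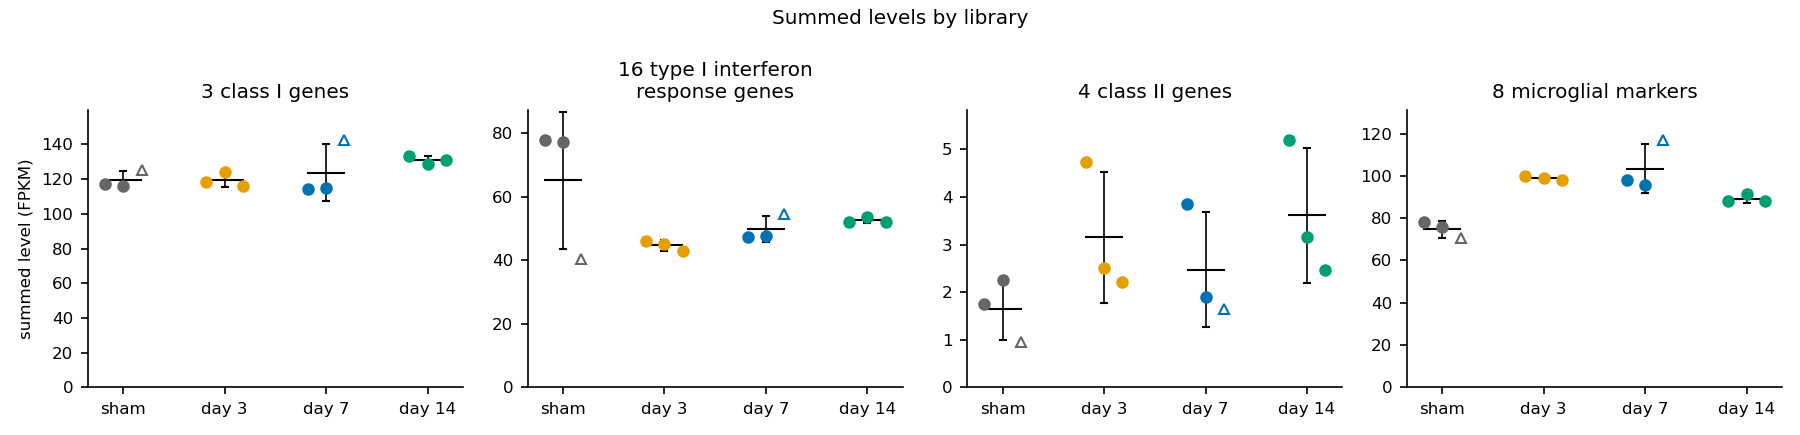
Summed levels in FPKM (vertical axes) by input library of the 3 class I genes, 16 type I interferon response genes, the 4 class II genes and 8 microglial markers, with the mean and SD of 3 libraries as bars. Sham library 3 (open triangle) lay far below the other sham libraries for the interferon genes, and microglial markers were lowest in sham.

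Genes whose profile over the libraries was most like that of the class I genes were sought among 13385 genes averaging 1 FPKM or more. Over 12 libraries they were 4921504A21Rik, Ss18l1, Ebag9, Srsf7 and Serpind1 (Pearson correlation 0.832 to 0.859 with the mean standardised profile of H2-K1, H2-D1 and B2m). Over the 10 libraries that did not stand apart they were Septin3, Cry2, Tmem8, Mtfp1 and Map7d2 (0.932 to 0.954), so that none was shared. For the 4 class II genes they were Scx, Ext2, Slc7a6, Cstf1 and Ubac1 over 12 libraries (0.864 to 0.916) and Xpo7, Pms2, Upf3b, Spag7 and Gna14 over 10 (0.883 to 0.949). Points of a group share their preparation, and no p is given. Among the genes described, the correlation over 10 libraries was 0.84 between H2-K1 and B2m, 0.70 between H2-K1 and H2-D1 and 0.85 between Cd74 and H2-Aa.

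m6A is a methyl mark on adenosines of messenger RNA, placed mostly near stop codons and in 3′ untranslated regions and read by proteins that act on RNA stability and translation. The peaks come as 1 list per group, so there is no replicate check and no test between groups, and whether libraries were pooled for them is not stated. A peak's fold enrichment over input and its p are the authors' values. The lists held 32669 peaks in sham, 40195 on day 3, 34136 on day 7 and 38655 on day 14. Of the 10 genes 5 had a peak in sham, 7 on day 3, 5 on day 7 and 7 on day 14, with 7, 13, 6 and 15 peaks. Among the 15564 tested genes, 74.4, 85.5, 76.6 and 85.1% had a peak in these groups, so that the larger numbers of days 3 and 14 went with longer lists. H2-Aa and H2-Ab1 are not among these tested genes. Set beside these shares, the counts are thus 5, 7, 5 and 7 of the 8 tested genes. Their part in the counts was not tested. Cd74, H2-Aa and H2-Ab1 had no peak in any list.

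**Figure D5:**
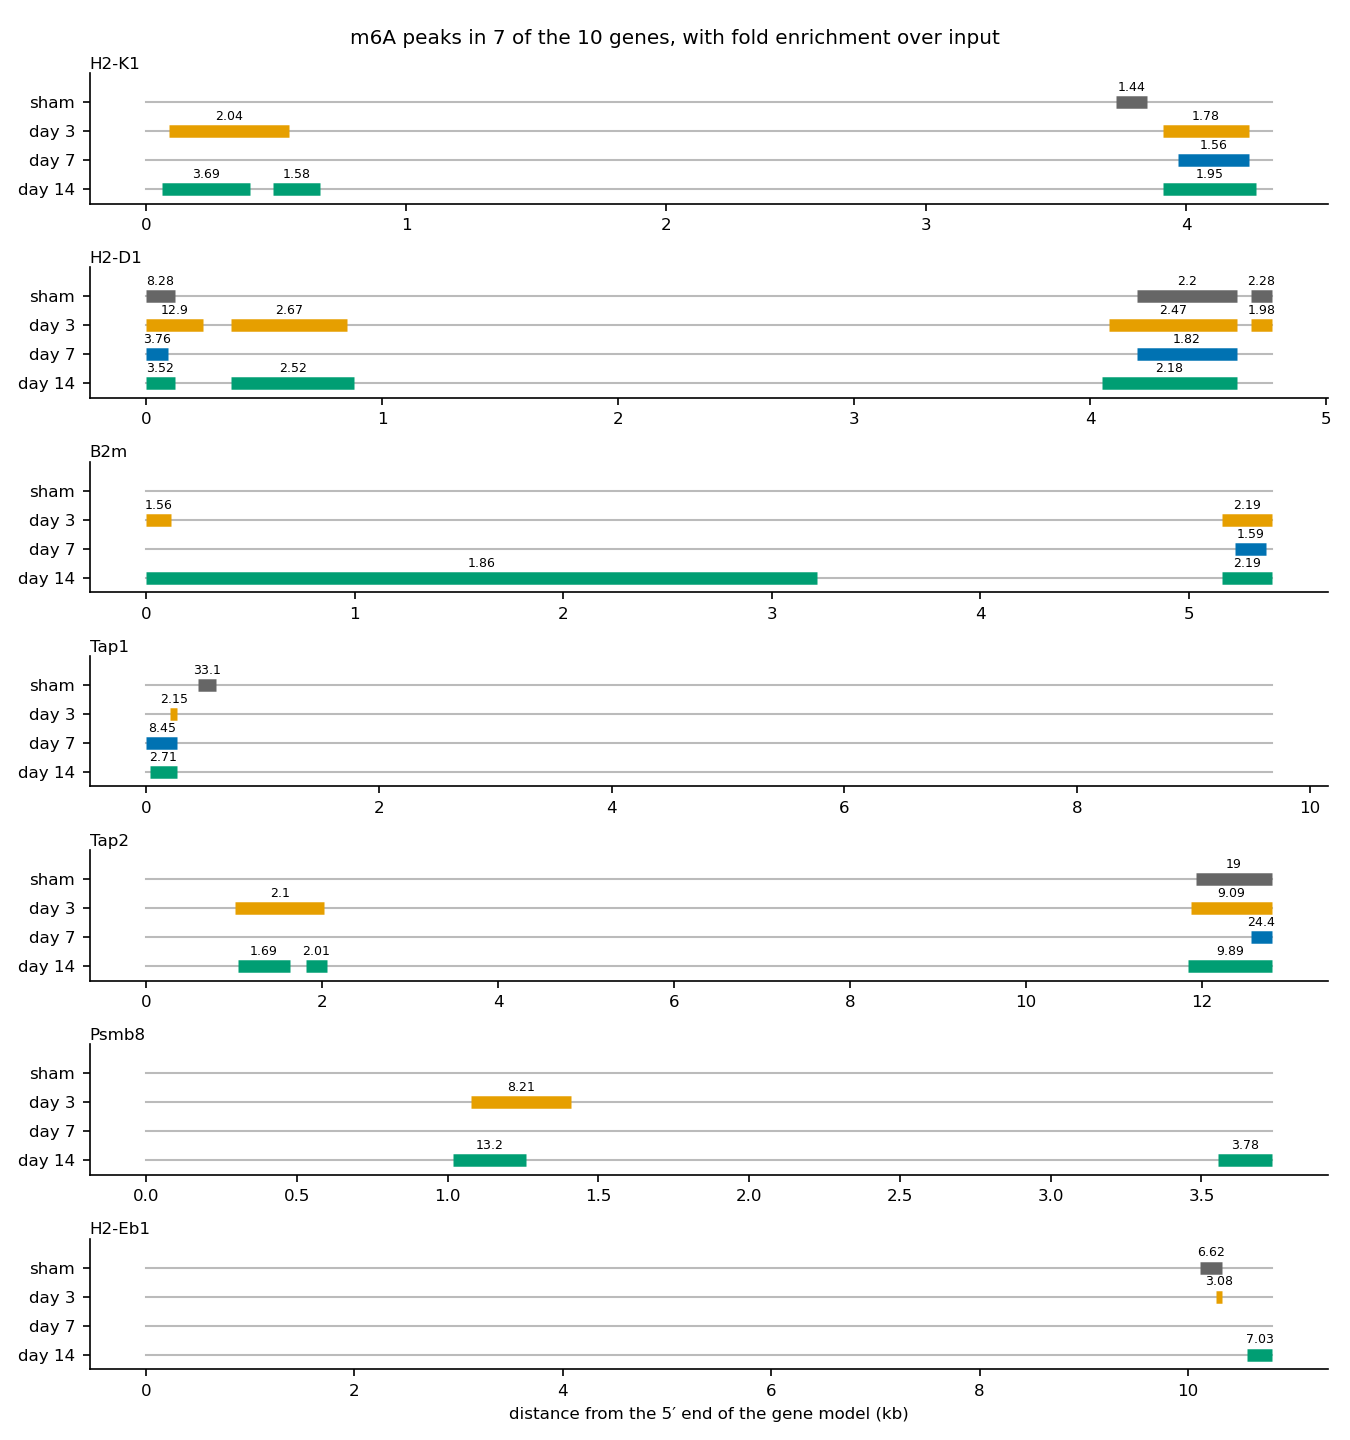
Peaks of m6A (thick bars) along the 7 genes that had any (spans, introns included), by distance in kb from the 5′ end of the gene model (horizontal axes), 1 line per group, with the authors' fold enrichment over input above each bar. B2m had no sham peak and a 3′ peak on all 3 injured days, and Tap2 had a 3′ peak of high enrichment in all 4 groups.

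B2m had a peak in the 3′ untranslated region on day 3 (122152846 to 122153083, fold enrichment 2.19), on day 7 (122152905 to 122153053, 1.59) and on day 14 (122152846 to 122153083, 2.19), and no peak in sham. A 5′ peak was listed on days 3 and 14 as well (1.56 and 1.86). Of 412 genes averaging 50 FPKM or more and with a peak on all 3 injured days, 7.28% had none in sham, and of all 14891 genes with a peak on those days 7.37% had none. B2m was the sole gene of the 10 with this pattern. A peak missing from a list shows only that none was called there.

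H2-K1 had a 3′ peak on day 3 (33996107 to 33996437, fold enrichment 1.78), day 7 (33996107 to 33996377, 1.56) and day 14 (33996077 to 33996437, 1.95). Sham had none at that place and 1 peak next to it (33996497 to 33996616, 1.44), which shared no base with them. Peaks near the 5′ end were listed on day 3 (2.04) and day 14 (3.69 and 1.58). H2-D1 had a 3′ peak in every group, at a fold enrichment of 2.20 in sham, 2.47 on day 3, 1.82 on day 7 and 2.18 on day 14, and these shared at least 50% of their length with each other. Its peak at the 5′ end of the gene model, beginning at 35262730, was also in every list (8.28, 12.9, 3.76 and 3.52), upstream of the RefSeq start at 35263094. A further 5′ peak was listed on day 3 (2.67) and day 14 (2.52), and a short peak at the 3′ end in sham (2.28) and on day 3 (1.98). On day 7 and day 14 the authors' false discovery rate of the peak beginning at 35262730 was 0.0933 and 0.0692, above 0.05.

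Tap2 had the 3′ peak of highest fold enrichment among the 10 genes, ending at 34216321 in all 4 groups, with a fold enrichment of 19.0 in sham, 9.09 on day 3, 24.4 on day 7 and 9.89 on day 14. It spanned 861, 920, 239 and 950 bases, introns included, and the narrower day 7 peak overlapped the others without reaching 50% of their length. Peaks near the 5′ end of Tap2 were listed on day 3 (2.10) and day 14 (1.69 and 2.01). Tap1 had its only sham peak in an exon (34188002 to 34188151, 33.1), and on days 3, 7 and 14 a peak up to 34187822 at its 5′ end instead (2.15, 8.45 and 2.71), of which that of day 3 had a false discovery rate of 0.0871. Peaks assigned to Psmb9 by gene identifier covered the shared start on day 7 (34187494 to 34187764, 12.8) and day 14 (34187014 to 34187764, 14.9). They overlap the 5′ Tap1 peaks of those days, and the authors' annotation names Tap1 for both. Which gene carries the mark there was not tested. Psmb8 had peaks on day 3 (8.21, false discovery rate 0.156) and day 14 (13.2 and 3.78) only. H2-Eb1 had 3′ peaks in sham (6.62), on day 3 (3.08) and on day 14 (7.03, false discovery rate 0.223), of which the last shared no base with the others.

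Of the peaks in the 10 genes, 4 of 13 on day 3, 2 of 6 on day 7 and 3 of 15 on day 14 shared at least 50% of their length reciprocally with a sham peak. When only peaks enriched 2-fold or more with a p of 1e-05 or lower were kept, the genes with a peak were 3 in sham (H2-D1, Tap1 and Tap2), 4 on day 3 (H2-K1, H2-D1, B2m and Tap2), 2 on day 7 (Tap1 and Tap2) and 5 on day 14 (H2-K1, H2-D1, B2m, Tap2 and Psmb8). Tap2 alone kept a peak in all 4 groups at this limit. Neither the overlap with sham nor the stricter limit was counted over all genes. Whether these counts differ from those of other genes is therefore not known. B2m and H2-K1 were the genes whose RNA was called higher on day 14 without the libraries that stood apart. B2m had m6A peaks on days 3, 7 and 14, and H2-K1 had m6A peaks in all 4 groups. Whether peaks and RNA level are linked was not tested.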

How the data were processed

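Input RNA levels came from the authors' deposited table of FPKM values for 12 libraries. Per the submitters' processing notes HISAT2, StringTie, edgeR and ChIPseeker were used; their versions, the program that called peaks and the build are not stated in the sources at hand. Peak lists held, per the file headers, a ratio (fold enrichment over input) and a score (base 10 logarithms of the p and the false discovery rate) for each peak, 1 list per group. Peak starts were taken as counted from 0 and are printed counted from 1. Of 26126 gene symbols matched to RefSeq GRCm38.p6, 99.9% overlapped the gene of the same name, and all 10 genes did. No column of per-sample values was left unused.

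Depth is unknown, so precision comes from the spread between libraries. log2(FPKM + 0.5) of the 15564 genes averaging 0.5 FPKM or more was fitted with limma 3.58.1 (lmFit, eBayes with trend) in R 4.3.3 as 4 group means, and p-values were adjusted within each of 6 comparisons over all genes. The steps were tested on simulated data. Groups follow the labels. Peaks were matched to a gene by its identifier and were shared at a reciprocal overlap of 50% on 1 strand. Promoter sequences are those of RefSeq, GRCm38.p6, not the authors'. For H2-K1, with several windows, the one at the gene model's 5′ end was used.

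The members, gene lists and markers were chosen with earlier results of these data known. All 10 genes were named, of the lists the genes called and the 3 most abundant or defining, the 5 genes most alike per class, and the peaks of the 10 genes. Genes of lung, Igkc, Lyz2 and list genes outside these limits were named after their values were seen. Alternatives were other pseudocounts (0.1 and 1), no filter or 5 FPKM, TPM, median of ratios, 2 groups only, a replicate block, each library left out, both libraries that stood apart left out and a stricter peak list or other overlap. Added after seeing the data were the fit without filter and without those libraries, and 6 averaged samples. Results for some genes of the B cell and interferon gamma lists are not reported here.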

Additional observations from a re-analysis of the deposited data

How the results depend on the processing

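None of the 10 genes was called under any alternative except without sham library 3 and day 7 library 3, where the count was 1 on day 14 against sham, 1 on day 14 against day 3 and 2 on day 14 against day 7. It was 0 with every single library left out. Of 798 log2 fold changes under 23 alternatives, 751 kept their direction and their side of the threshold, 43 reversed and 4 became calls. With a single library left out, log2 differences that changed sign ranged from -0.15 to 0.0026 for B2m, -0.34 to 0.013 for Tap1, -0.057 to 0.29 for Tap2 on day 3 against sham. They ranged from -0.11 to 0.042 for H2-K1, -0.12 to 0.13 for H2-D1, -0.13 to 0.16 for B2m, -0.48 to 0.034 for Tap2, -0.11 to 0.50 for Cd74 on day 7 against sham. They ranged from -0.10 to 0.25 for Tap1, -0.039 to 0.15 for Psmb8 on day 14 against sham. They ranged from -0.032 to 0.25 for B2m, -0.64 to 0.078 for Cd74 on day 7 against day 3. They ranged from -0.016 to 0.026 for H2-D1, -0.16 to 0.0064 for Psmb8, -0.057 to 0.60 for Cd74, -0.039 to 0.18 for H2-Eb1 on day 14 against day 3. They ranged from -0.076 to 0.21 for B2m on day 14 against day 7. Without both libraries that stood apart, with the filter or without it, differences reversed to 0.0026 for B2m and -0.057 for Tap2 (day 3), -0.029 for B2m (day 7), -0.10 for Tap1 and -0.039 for Psmb8 (day 14), and -0.032 for B2m (day 7 against day 3). Median-of-ratios scaling gave -0.0022 for H2-D1 on day 7, TPM gave -0.012 for B2m on day 14 against day 7, and averaging into 6 samples gave 0.016 for H2-K1 on day 7 and -0.065 for B2m on day 14 against day 7. The cause of these reversals was not tested.

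The labels do not say that a replicate number marks a shared animal or batch, and the evidence in the data was mixed: the deviations of same-numbered libraries correlated at -0.11 to 0.79, over 0.1 in 7 of 18 pairs, while 9 of 12 libraries correlated best with their own number. With a replicate block 0 of the 10 genes were called in any comparison, as without it, and over all genes the calls were 5, 9 and 8 on days 3, 7 and 14 against sham.

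With the stricter peak list the genes with a peak numbered 3 in sham, 4 on day 3 and 2 on day 7, and peaks shared with sham numbered 2 on day 3 and 0 on day 7. At an overlap of 80% they numbered 2 on day 3 and 1 on day 7. With depth unknown, no limit of detection could be given for genes below 0.5 FPKM.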
